A study of Mus musculus with 10 samples.

Results

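The PGC-1 coactivators, the estrogen-related receptors (ERRs), nuclear respiratory factor 1 (NRF1) with its target TFAM, and the receptors PPARalpha and PPARdelta form a regulatory circuit that sets how much oxidative machinery a muscle fibre makes. Their transcripts were examined in mouse gastrocnemius, the large muscle of the calf. The 10 genes were taken by symbol, and each was read from the probe set that the array annotation assigns to that gene alone. All 10 were found among 22180 genes measured by a probe set with a single gene symbol, and each of them had exactly 1 such probe set. A further probe set is annotated to both Ppard and 1810013A23Rik and was not used.

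The carnitine group comprised 5 male NMRI mice (an outbred stock) fed a natural ingredient diet with 1000 mg L-carnitine added per kg. The control group comprised 5 male NMRI mice fed the same basal diet, which held under 5 mg carnitine per kg. Each mouse supplied total RNA for 1 Affymetrix Mouse Gene 2.0 ST array, and the question was how lifelong supplementation affects the muscle transcriptome at advanced age. The study started with mice aged 3 weeks and fed 30 per diet, in cages of 5. It killed 10 per diet at each of 9, 15 and 18 months. Neither the age at killing nor the cage of an array mouse is given in the labels. Any effect of age or cage on the values below was not tested.

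PGC-1alpha, PGC-1beta and PRC (encoded by Ppargc1a, Ppargc1b and Pprc1) bind no DNA themselves but dock on transcription factors and recruit the machinery that activates their targets. The ERRs are orphan nuclear receptors that hold the promoters of respiratory chain, citric acid cycle and fatty acid oxidation genes, while NRF1 drives respiratory genes and Tfam, whose product packages mitochondrial DNA and activates its promoters. PPARalpha and PPARdelta are fatty acid sensors that pair with retinoid X receptors and switch on lipid uptake and oxidation. In skeletal muscle this circuit is best known for its response to endurance exercise and for being more active in oxidative than in glycolytic fibres.

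All values are log2 signals as the authors normalised them, so a step of 1 unit is a doubling, and differences are carnitine minus control. The muscle identity of the samples was clear from the arrays: Ckm, the muscle creatine kinase, averaged 13.34 ± 0.04 in carnitine and 13.29 ± 0.08 in control mice (SD, n = 5 per group). Control replicate 5 stood apart from the other arrays, with an interquartile range of 2.2 against 2.39 to 2.59 elsewhere. Values without it are given where it moved a result most. The level of 10 slow-fibre markers, the mean log2 signal over genes such as the slow myosin Myh7, was 8.48 ± 1.11 (7.11 to 9.7) in carnitine mice and 9.42 ± 0.37 (9.02 to 9.86) in controls. Of its 10 genes, 9 differences were negative and 7 had an unadjusted p below 0.05 in limma, with 0 past the adjusted threshold, and the part of fibre content in the diet comparisons of the regulators was not tested. In whole muscle RNA, fewer cells of a type and less RNA per cell cannot be told apart.

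Carnitine feeding was not accompanied by a detectable change in any of the 10 regulators. The differences ran from -0.13 to 0.14, with 6 positive and 4 negative, against 47.5% and 52.0% of all genes. Their median was 0.02, against -0.01 over all genes. Over the genes brighter than the median over all probe sets (5.8), as all 10 regulators are, it was 0.04. None of the 10 passed an adjusted p of 0.05 in limma, where 0 of 22180 genes passed (0.0%), and none had an unadjusted p below 0.05, against 1546 of all genes (6.97%). In no regulator were the 2 groups free of overlap, as they were in 247 genes (1.11%, with carnitine higher in 0.505% and lower in 0.609%). The 95% confidence intervals of all 10 differences lay between -0.43 and 0.38, or 0.74-fold and 1.3-fold, so a change beyond that range lies outside the interval of each regulator, while smaller ones cannot be told from the spread between mice.

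**Figure D1:**
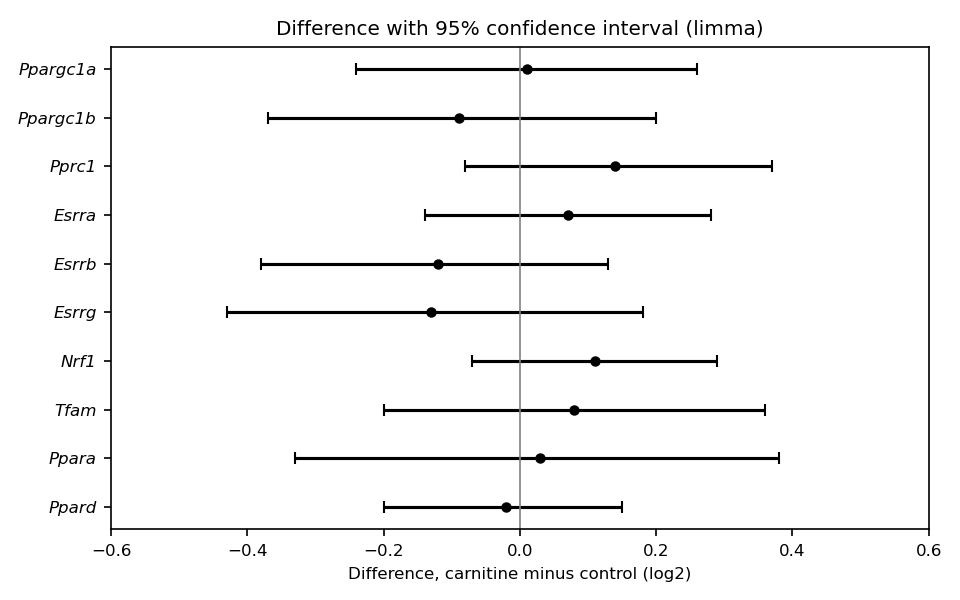
Difference between carnitine and control muscle for each regulator (horizontal axis, log2), with points for the limma estimate and bars for the 95% confidence interval. Every interval crosses 0, and the widest belongs to Ppara (-0.33 to 0.38).

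Ppargc1a, the coactivator induced by exercise and cold, read 9.5, 9.63, 9.39, 9.23 and 9.57 in carnitine mice 1 to 5. In control mice 1 to 5 it read 9.79, 9.55, 9.22, 9.48 and 9.22. All 5 carnitine values lay inside the control range, and the highest value of all came from control mouse 1. The means were 9.46 ± 0.16 in carnitine and 9.45 ± 0.24 in control mice (SD, n = 5 per group) and differed by 0.01 (SE 0.117, 95% interval -0.24 to 0.26, limma adjusted p = 0.98). Its sign turned after cyclic loess (-0.09) and after quantile normalisation (-0.08) of the deposited values.

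Ppargc1b, the related coactivator linked to basal mitochondrial content, read 7.89, 7.54, 7.6, 7.65 and 7.48 in carnitine mice, against 8.17, 7.6, 7.69, 7.76 and 7.37 in control mice. Control mouse 1 was again the highest, and without it the difference of -0.09 (SE 0.132, interval -0.37 to 0.2, limma adjusted p = 0.87) became 0.03. Pprc1, the family member that responds to growth signals, read 7.39, 7.5, 7.5, 7.21 and 7.26 in carnitine mice and 7.12, 7.28, 7.49, 7.27 and 6.99 in control mice. Of the carnitine mice, 2 lay just above the highest control and 3 within the control range. Its difference was 0.14 (SE 0.105, interval -0.08 to 0.37, limma adjusted p = 0.74), and 0.08 without control replicate 5, its lowest array.

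**Figure D2:**
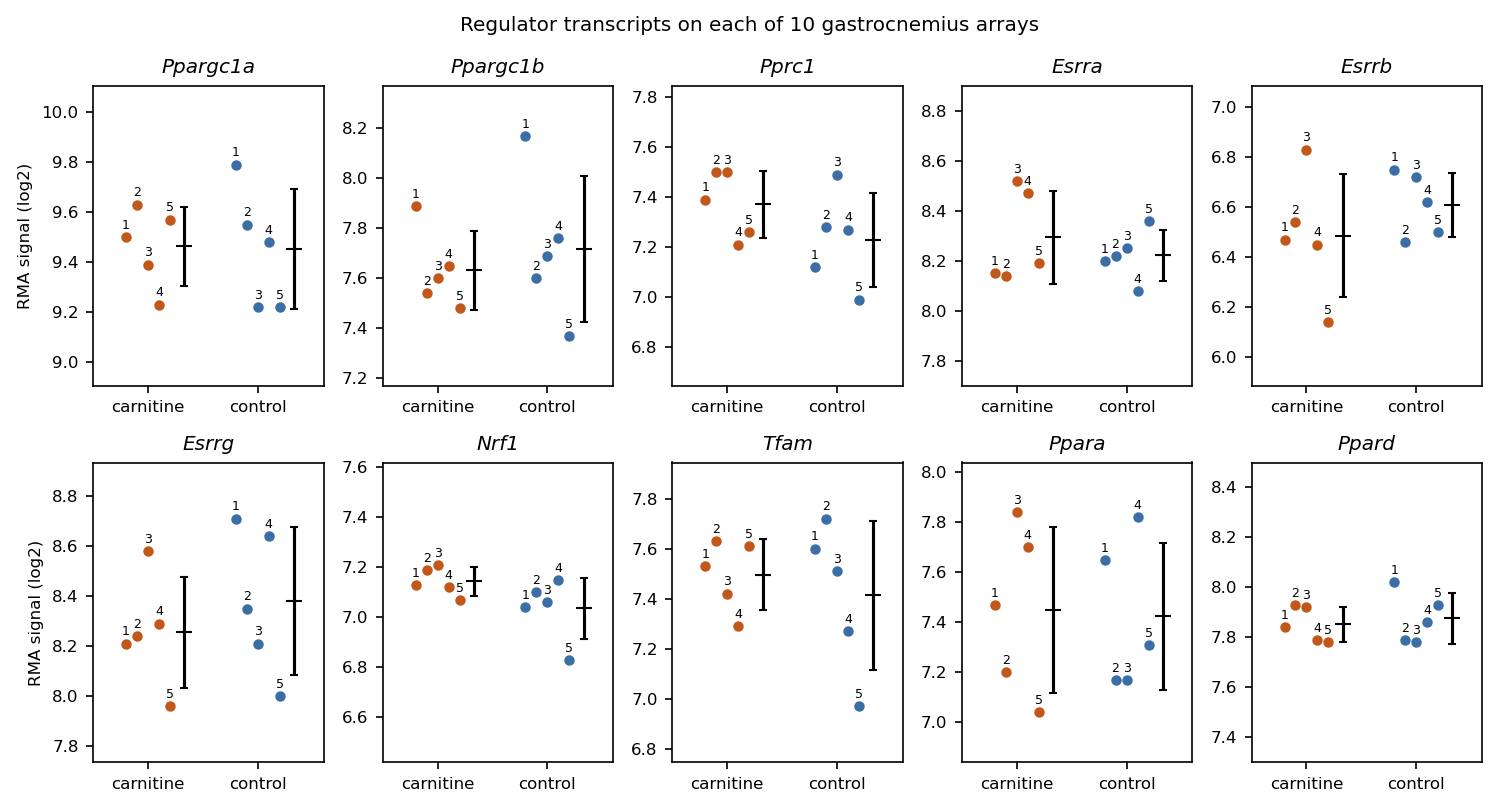
Log2 signal of each regulator on all 10 arrays (vertical axis, the same span in every panel), carnitine left of control, with the replicate number above each point and the mean ± SD beside each group. The groups overlap in every panel, and Ppara and Esrrg scatter more widely within each diet than Ppard and Nrf1.

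Among the ERRs, Esrra encodes ERRalpha, the main partner of PGC-1alpha in muscle. It read 8.15, 8.14, 8.52, 8.47 and 8.19 in carnitine mice and 8.2, 8.22, 8.25, 8.08 and 8.36 in control mice. Carnitine mice 3 and 4 lay above every control, and the other 3 sat within the control range. The difference was 0.07 (SE 0.099, interval -0.14 to 0.28, limma adjusted p = 0.85), and it was -0.02 after cyclic loess and -0.01 after quantile normalisation.

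Esrrg encodes ERRgamma, the family member enriched in slow, oxidative fibres. Its values were 8.21, 8.24, 8.58, 8.29 and 7.96 in carnitine mice, against 8.71, 8.35, 8.21, 8.64 and 8 in control mice. Carnitine mouse 3 and control mice 1 and 4 formed the upper end, and carnitine mouse 5 lay below every control. The means were 8.26 ± 0.22 in carnitine and 8.38 ± 0.3 in control mice (SD, n = 5 per group) and differed by -0.13 (SE 0.142, interval -0.43 to 0.18, limma adjusted p = 0.82). Esrrb, whose product ERRbeta is best known from stem cells and the inner ear, read 6.47, 6.54, 6.83, 6.45 and 6.14 in carnitine mice and 6.75, 6.46, 6.72, 6.62 and 6.5 in control mice. The carnitine group held both the highest and the lowest value. Its difference was -0.12 (SE 0.118, interval -0.38 to 0.13, limma adjusted p = 0.79), and without carnitine mouse 5 it was -0.04, without carnitine mouse 3 -0.21. The Esrrg difference was -0.04 without control mouse 1 and -0.22 without control replicate 5. Both stayed negative under the 20 alternative settings.

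Nrf1 varied little. It read 7.13, 7.19, 7.21, 7.12 and 7.07 in carnitine mice and 7.04, 7.1, 7.06, 7.15 and 6.83 in control mice. All 5 carnitine mice lay above the control mean of 7.04, and 2 of them above every control. The difference was 0.11 (SE 0.085, interval -0.07 to 0.29, limma adjusted p = 0.75), and an exact two-sided permutation test gave p = 0.0873, the lowest of the 10 genes. The low control value belongs to the array that stood apart, and without control replicate 5 the difference was 0.06.

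Tfam, the mitochondrial DNA packaging factor, read 7.53, 7.63, 7.42, 7.29 and 7.61 in carnitine mice, against 7.6, 7.72, 7.51, 7.27 and 6.97 in control mice. All carnitine values lay inside the control range, whose lower end was again control mouse 5. The difference was 0.08 (SE 0.132, interval -0.2 to 0.36, limma adjusted p = 0.87) and -0.03 without that array.

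Ppara, the fatty acid receptor that drives fat oxidation, had the widest spread. It read 7.47, 7.2, 7.84, 7.7 and 7.04 in carnitine mice, against 7.65, 7.17, 7.17, 7.82 and 7.31 in control mice. High and low mice occurred on both diets: carnitine mice 3 and 4 and control mice 1 and 4 were at 7.65 or above. The means were 7.45 ± 0.33 in carnitine and 7.42 ± 0.3 in control mice (SD, n = 5 per group) and differed by 0.03 (SE 0.165, interval -0.33 to 0.38, limma adjusted p = 0.97) that was -0.03 after cyclic loess and -0.04 after quantile normalisation. Ppard, the PPAR isoform with a broad role in muscle fat use, read 7.84, 7.93, 7.92, 7.79 and 7.78 in carnitine mice and 8.02, 7.79, 7.78, 7.86 and 7.93 in control mice. All 5 carnitine values lay within the control range. Its difference was -0.02 (SE 0.082, interval -0.2 to 0.15, limma adjusted p = 0.94), the narrowest interval of the 10, and 0.03 after median centring.

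The regulators differed in how much they varied between mice on the same diet. The pooled within-diet SD was 0.315 for Ppara, above that of 92.1% of 3475 genes with a mean signal within 0.5 log2 units, and 0.261 for Esrrg, above that of 85% of 2360 such genes. At the other end stood Ppard with an SD of 0.087, above 5.06% of 2983 genes, and Nrf1 with 0.095, above 8.97% of 3915 genes. Ppargc1a was between them at 0.204, above 67.1% of 1011 genes. These percentiles describe the 10 arrays and carry no test.

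The spread of Ppara and Esrrg followed the level of genes that the circuit is known to drive. The level of PGC-1 and ERR targets, the mean log2 signal over 24 genes, was 11.09, 11.04, 11.21, 11.17 and 10.78 in carnitine mice 1 to 5. In control mice 1 to 5 it was 11.2, 10.95, 10.89, 11.12 and 10.86. Most of these genes serve the respiratory chain, the citric acid cycle, fatty acid oxidation or energy transfer in mitochondria, and others include Mb, Slc2a4, Fndc5 and Vegfa. The 4 mice with the highest target levels, carnitine mice 3 and 4 and control mice 1 and 4, were also the 4 with the highest Ppara. Over the 10 arrays Ppara correlated with this level at Pearson's r = 0.88 (permutation p = 0.00198, adjusted p = 0.047 over 30 relations) and Spearman's rho = 0.88 (permutation p = 0.0018, adjusted p = 0.0492). With the group means subtracted, r was 0.89 (adjusted p = 0.0318 by permutation within diets).

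Leaving out control mouse 5 and carnitine mouse 5, the 2 arrays farthest from the median target level, gave r = 0.89 for Ppara (exact permutation p = 0.00417), which did not pass adjustment over the 30 relations (adjusted p = 0.125). Without control replicate 5 alone r was 0.9 (permutation p = 0.00075, adjusted p = 0.0225). Esrrg correlated with the same level at r = 0.82 (permutation p = 0.0047, adjusted p = 0.047) and rho = 0.83 (permutation p = 0.00469, adjusted p = 0.0492). Its r was 0.91 with group means subtracted and 0.64 without the same 2 arrays (exact permutation p = 0.0916, adjusted p = 0.699), so the Esrrg relation rests on those arrays. Without control replicate 5 alone the Esrrg relation had r = 0.78 and an adjusted permutation p of 0.107.

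**Figure D3:**
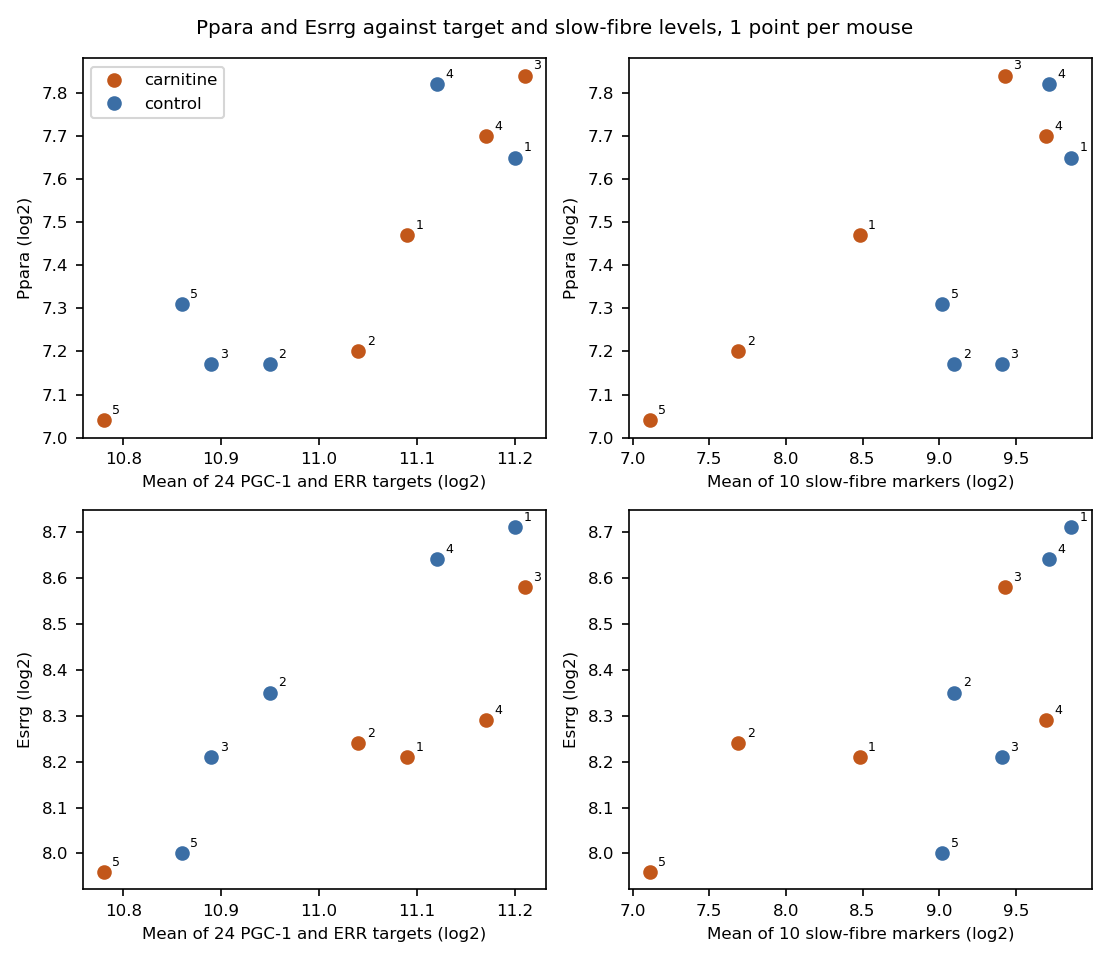
Ppara (top) and Esrrg (bottom) in each mouse against the mean level of 24 PGC-1 and ERR targets (left) and of 10 slow-fibre markers (right), all in log2 units, with replicate numbers beside the points. For Ppara, mice of both diets lie along the same rising band on the left, from carnitine mouse 5 up to carnitine mouse 3 and control mouse 1. For Esrrg, carnitine mice 1, 2 and 4 (8.21, 8.24 and 8.29) lie below control mouse 2 (8.35). Their target levels were 11.09, 11.04 and 11.17, against 10.95 in control mouse 2. An offset between the diets was not tested.

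The other regulators had lower correlations with this level in these arrays, and the difference between correlations was not tested. Against the PGC-1 and ERR target level, r was 0.21 for Ppargc1a (permutation p = 0.552, rho = 0.13 with permutation p = 0.712), 0.61 for Ppargc1b (permutation p = 0.0551, rho = 0.59 with permutation p = 0.0784) and 0.14 for Pprc1 (permutation p = 0.693, rho = 0.16 with permutation p = 0.662). For Esrra it was 0.24 (permutation p = 0.494, rho = 0.18 with permutation p = 0.633). For Esrrb it was 0.62 (permutation p = 0.0552, rho = 0.54 with permutation p = 0.113) and for Nrf1 0.53 (permutation p = 0.0994, rho = 0.5 with permutation p = 0.144). The Nrf1 value was 0.42 without control replicate 5, the array with its lowest signal, 0.24 after cyclic loess and 0.31 after quantile normalisation. For Tfam r was -0.01 (permutation p = 0.984, rho = -0.19 with permutation p = 0.607) and for Ppard 0.46 (permutation p = 0.175, rho = 0.45 with permutation p = 0.19). None of these passed adjustment. Gene by gene, Ppara had a positive r with all 24 targets (median 0.72) and Esrrg with 23 (median 0.68), against 51.4% and 46.2% of all genes (median r 0.01 and -0.04). Nrf1 had a positive r with all 24 targets too (median 0.47, against 46% of all genes), Esrrb with 22 (median 0.53, against 51.4%) and Ppargc1b with 21 (median 0.57, against 43.9%). Ppargc1a had a positive r with 18 of the 24 (median 0.19), against 44.3% of all genes. The count was 22 for Esrra (median 0.22, against 54.2%) and 21 for Ppard (median 0.34, against 51.8%). It was 17 for Pprc1 (median 0.15, against 48.4%) and 12 for Tfam (median 0.03, against 45.1%). The targets are not replicates of each other, so these counts carry no test.

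The target gene nearest to Ppara was Atp5a1. It encodes the alpha subunit of ATP synthase and had r = 0.93 with Ppara (permutation p = 0.00013, adjusted p = 0.00624 over 48 relations, rho = 0.96 with adjusted p = 0.0024). Mb, the oxygen store myoglobin, had r = 0.86 (permutation p = 0.0012, adjusted p = 0.0138, rho = 0.9 with adjusted p = 0.00888). Esrrg had r = 0.86 with Ckmt2, the mitochondrial creatine kinase (permutation p = 0.00167, adjusted p = 0.0138, rho = 0.91 with adjusted p = 0.00888). In this family of 48, which was added after the target level had been seen to vary with both genes and is no independent evidence, 15 of 24 relations passed for Ppara and 12 of 24 for Esrrg. By Spearman's rho 9 and 4 passed. Without the 2 arrays farthest from the median of each regulator, 1 and 0 passed, and without control replicate 5 the counts were 13 and 7.

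The level of slow-fibre markers also had a positive r with Esrrb, Ppara and Esrrg, though no Pearson relation with it passed adjustment over the 10 arrays. That level had its highest r of the 10 regulators with Esrrb, at 0.71 (permutation p = 0.0201, adjusted p = 0.117, rho = 0.54 with permutation p = 0.113). The Esrrb value was 0.5 without carnitine mice 2 and 5 (exact permutation p = 0.211). The slow-fibre level had r = 0.7 with Ppara (permutation p = 0.0234, adjusted p = 0.117, rho = 0.69 with permutation p = 0.0318) and r = 0.69 with Esrrg (permutation p = 0.0279, adjusted p = 0.119, rho = 0.83 with permutation p = 0.00492 and adjusted p = 0.0492). With group means subtracted the values for Ppara and Esrrg were 0.86 and 0.67, with adjusted p of 0.0318 and 0.0485 by permutation within diets. For Esrrb the value was 0.67, and its adjusted p of 0.285 by the same permutation did not pass. Leaving out carnitine mice 2 and 5, the lowest in slow-fibre level, gave r = 0.5 for Ppara and 0.66 for Esrrg (exact permutation p = 0.2 and 0.0743). The Ppara relation was thus weaker without those mice, while the r of Esrrg moved little and 8 arrays remained. The slow-fibre level and the target level themselves had r = 0.59 (permutation p = 0.0719, rho = 0.72 with permutation p = 0.0238), and 0.83 with group means subtracted (adjusted p = 0.00213 over 3 relations, by permutation within diets). The PPAR target level had r = 0.71 with the slow-fibre level (permutation p = 0.0197, adjusted p = 0.0295, rho = 0.58 with permutation p = 0.0896) and r = 0.76 with the PGC-1 and ERR target level (permutation p = 0.00941, adjusted p = 0.0282, rho = 0.67 with permutation p = 0.0397). Without the 2 arrays farthest from the median the 3 values were 0.45, 0.21 and 0.55, and none passed. Levels of 9 other marker lists (whole muscle, fast fibre, adipocyte, fibroblast, macrophage, endothelial, tendon, nerve and satellite cell) and the arrays' interquartile range had no relation with Ppara or Esrrg that passed adjustment over 20 relations (lowest adjusted permutation p = 0.577). The largest r were 0.58 (endothelial) and -0.58 (nerve) with Esrrg and -0.56 (adipocyte) with Ppara. Whether these differ in strength from the slow-fibre relations was not tested.

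Ppargc1b was the regulator that followed the PPAR target level most closely. That level, the mean over 19 genes such as Pdk4 and Cd36, correlated with Ppargc1b at r = 0.82 (permutation p = 0.00425, adjusted p = 0.047 over 30 relations) and rho = 0.74 (permutation p = 0.0174, adjusted p = 0.131). Control mouse 1 was highest and carnitine mouse 5 lowest in the PPAR target level, and without these 2 arrays r was 0.62 (exact permutation p = 0.102), so the relation rests on them. Without control replicate 5 r was 0.83, and the adjusted permutation p was 0.072. Esrrg came next with r = 0.75 (permutation p = 0.0119, adjusted p = 0.0892, rho = 0.64 with permutation p = 0.0498), and 0.44 without control mouse 1 and carnitine mouse 5. For Ppara and the PPAR target level r was 0.64 (permutation p = 0.0435, adjusted p = 0.163, rho = 0.47 with permutation p = 0.175). For Esrrb it was 0.56 (permutation p = 0.092, rho = 0.3 with permutation p = 0.405), and for Ppard it was 0.42 (permutation p = 0.222, rho = 0.25 with permutation p = 0.483). Gene by gene, Ppard had a positive r with 17 of the 19 PPAR targets (median 0.26) and Ppargc1b with 16 (median 0.64). The count was 16 for Ppargc1a (median 0.22) and Esrrb (0.38), 15 for Esrrg (0.54) and 13 for Ppara (0.45). It was 12 for Nrf1 and Tfam, 11 for Esrra and 8 for Pprc1. Over all genes the positive share ran from 43.9% to 54.2%, and these counts carry no test.

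**Figure D4:**
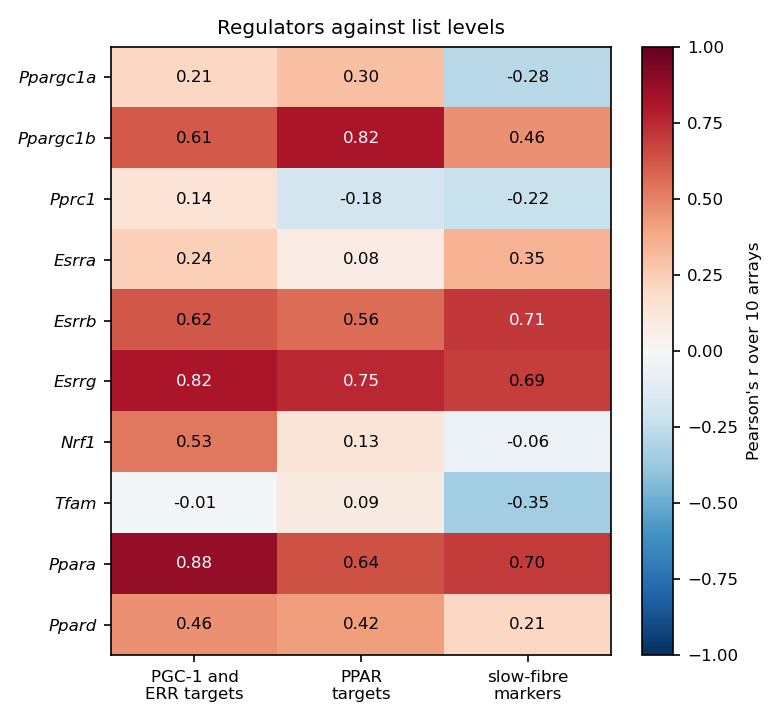
Pearson's r over 10 arrays between each regulator (rows) and the mean level of PGC-1 and ERR targets, PPAR targets and slow-fibre markers (columns), on a colour scale from -1 to 1. The highest values belong to Ppara (0.88) and Esrrg (0.82) with PGC-1 and ERR targets and to Ppargc1b (0.82) with PPAR targets.

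Between the regulators themselves, none of 45 pairs passed adjustment, and 5 had an unadjusted permutation p below 0.05. Pprc1 and Nrf1 had r = 0.78 (permutation p = 0.00524, adjusted p = 0.221, rho = 0.73 with permutation p = 0.0206), which was 0.58 without control replicate 5. Esrrg and Ppara had r = 0.76 (permutation p = 0.013, adjusted p = 0.221, rho = 0.67 with permutation p = 0.0396), and 0.79 without that array. The others were Esrrb with Esrrg (r = 0.73), Ppargc1b with Esrrg (r = 0.68) and Ppargc1a with Tfam (r = 0.67). Nrf1 and its target Tfam had r = 0.54 (permutation p = 0.11, rho = 0.08 with permutation p = 0.838), and r was -0.32 without control replicate 5, the lowest array for both genes.

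Promoter windows of the receptors whose levels followed the target genes are shown because the circuit's factors are known to act at such sites. RefSeq windows (GRCm38.p6) from 250 bases before to 50 after a transcription start were searched on both strands for an ERR element (TNAAGGTCA, in 1.28% of 32851 mouse promoter windows), a PPAR element (AGGTCA repeated after any single base, in 0.0396%) and an NRF1 site (the palindrome in capitals in the Ppara sequence, in 0.971%). Of 14 windows for 9 of the regulators, 1 held a match. It is an NRF1 site in the Ppara window on chr15:85735526-85735825 (plus strand), whose first base lies 31 bases before the start, shown in capitals. The Esrrg window at its most upstream of 4 starts, chr1:187608756-187609055 (plus strand), held no match. Its G and C content of 54% is near the median of 52.7% over all promoter windows, while the Ppara window has 74.7%.
Ppara: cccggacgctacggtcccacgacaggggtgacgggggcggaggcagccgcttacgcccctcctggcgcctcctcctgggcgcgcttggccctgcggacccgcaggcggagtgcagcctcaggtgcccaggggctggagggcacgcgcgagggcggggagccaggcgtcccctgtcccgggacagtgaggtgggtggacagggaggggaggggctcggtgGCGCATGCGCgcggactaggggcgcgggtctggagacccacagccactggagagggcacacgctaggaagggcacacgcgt
Esrrg: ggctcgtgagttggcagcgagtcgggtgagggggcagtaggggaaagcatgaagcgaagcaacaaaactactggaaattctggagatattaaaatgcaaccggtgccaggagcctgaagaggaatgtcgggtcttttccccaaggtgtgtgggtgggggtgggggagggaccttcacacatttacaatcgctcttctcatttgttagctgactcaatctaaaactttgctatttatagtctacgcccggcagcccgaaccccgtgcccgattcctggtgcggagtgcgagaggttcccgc
Across the 10 arrays Nrf1 and Ppara had r = 0.32 (permutation p = 0.405, rho = 0.47 with permutation p = 0.175). The same 3 motifs were found in none of 26 windows of the PGC-1 and ERR targets and none of 18 windows of the PPAR targets. A motif match is a description of the letters and not a measured binding site.

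Genes around the circuit also gave no call between the diets, and a list was described by its counts because its members are not replicates. Over all genes 47.5% of differences were positive and 52.0% negative, with a median of -0.01. Over genes brighter than the median over all probe sets, as all genes of the lists in this paragraph are, the median was 0.04. Of 13 measured heterodimer partners and co-regulators, 9 differences were positive and 4 negative (median 0.05), and 0 passed limma's adjusted threshold. Rxrg, the retinoid X receptor isoform of muscle, averaged 8.05 ± 0.09 in carnitine and 7.74 ± 0.24 in control mice (SD, n = 5 per group) and differed by 0.31 (SE 0.11, limma adjusted p = 0.71). Med1, the mediator subunit that docks nuclear receptors, stood at 0.2, the corepressor gene Nrip1 at 0.26 and Rxra at 0.14. The median of the list was -0.01 after cyclic loess and -0.04 without control replicate 5. Of 14 upstream kinases and factors of Ppargc1a, 9 were positive and 3 negative (median 0.05, with -0.04 after cyclic loess and 0.02 without control replicate 5), 0 passed, and the largest were Prkaa1, an AMP-activated kinase subunit, at 0.25 (SE 0.14) and Fnip1, a partner of folliculin, at 0.21 (SE 0.1).

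Of 14 genes of mitochondrial DNA expression and replication, 11 differences were positive and 3 negative, and the median was 0.13, against -0.01 over all genes. All 14 are brighter than the median over all probe sets, and over all such genes the median difference was 0.04. None passed limma's adjusted threshold or an unadjusted p of 0.05. Tfb2m, the mitochondrial transcription factor that opens the promoter, averaged 9.28 ± 0.12 in carnitine and 9.06 ± 0.23 in control mice (SD, n = 5 per group), a difference of 0.22. Tfb1m, a ribosomal RNA methyltransferase of the same family, stood at 0.21, Mterf3 at 0.21 and Twnk, the mitochondrial DNA helicase, at 0.18. The median was 0.09 after cyclic loess and 0.06 to 0.16 when single arrays were left out, with the lowest value without control replicate 5.

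Of the 24 measured PGC-1 and ERR targets, 18 differences were positive and 6 negative, with 0 past the adjusted threshold. Their median was 0.07, with -0.01 after cyclic loess and 0.04 without control replicate 5. All 24 are brighter than the median over all probe sets, and over all such genes the median difference was 0.04. Over all genes 47.5% of differences were positive and 52.0% negative, with a median of -0.01. Slc2a4, the insulin-responsive glucose transporter, stood at 0.19 (SE 0.083, limma adjusted p = 0.71), Cox5b at 0.27 and Idh3a at 0.13, while Fndc5, the precursor of the myokine irisin, stood at -0.3. Of the 19 PPAR targets measured among 23 listed, 4 were positive and 14 negative (median -0.08), and 0 passed. That median was -0.02 without carnitine mouse 5 or without control mouse 1. Pdk4, the kinase that shuts pyruvate out of oxidation, stood at -0.36 (SE 0.29), the thioesterase gene Acot2 at -0.23, Fgf21 at -0.18 and Cyp4a14 at -0.2. Fgf21 and Cyp4a14 are dim on these arrays, with means under 5.8, the median over all probe sets.

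**Figure D5:**
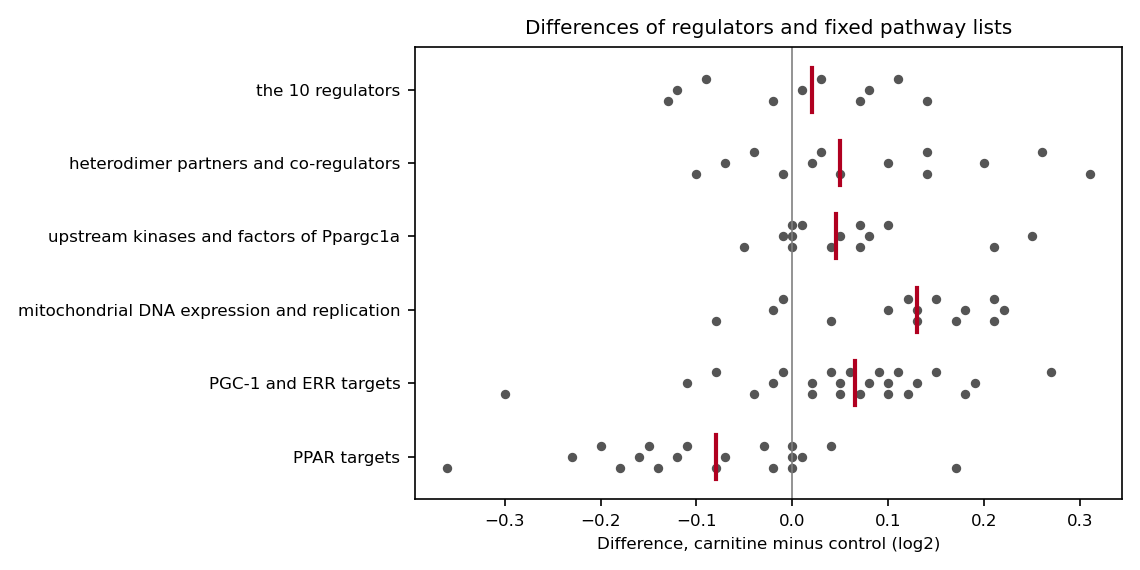
Difference between carnitine and control muscle (horizontal axis, log2) for the 10 regulators and for each measured gene of 5 pathway lists, 1 grey point per gene, with a red bar at the list median. The medians run from -0.08 for PPAR targets to 0.13 for genes of mitochondrial DNA expression and replication.

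The genes with profiles most like those of the regulators were found by the root mean square difference between standardised profiles (mean 0 and SD 1 over the 10 arrays) among 11854 named genes above the median probe set level. For Ppara they were Cyth2 (0.31), Bdh1 (0.31), the mitochondrial enzyme of ketone body oxidation, and Wfs1 (0.33), against a median of 1.34 over all candidates. Bdh1 averaged 7.87 ± 0.48 in carnitine and 8.02 ± 0.39 in control mice (SD, n = 5 per group). For Esrrg they were Dmpk (0.28), the kinase gene of myotonic dystrophy, Stim1 (0.32), the sensor of calcium stores, and the glutamine transporter gene Slc38a3 (0.32), against a median of 1.32. Dmpk averaged 9.64 ± 0.23 in carnitine and 9.71 ± 0.37 in control mice. For Nrf1 the nearest were Zxdc (0.2) and Med28 (0.23), for Tfam Scarb2 (0.21) and Dennd6a (0.23), and for Ppargc1a Tbca (0.38) and Bicra (0.39).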

How the data were processed

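Gastrocnemius RNA of 10 mice was measured on 1 array each. Per the submitters' processing notes the authors made the deposited log2 values with RMA in Affymetrix Expression Console (versions and genome build not given in the sources used here), rounded to 2 decimals, for 34390 probe sets. RMA normalises between arrays, so differences in total RNA cannot be seen, and dim signals are compressed. The platform annotation gives 23521 probe sets exactly 1 symbol, 1814 several, and 9055 are unnamed here. Per gene the probe set with the highest mean was kept, leaving 22180 genes, with no filter on dim signal.

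The 2 diets were tested with lmFit and eBayes (mean-variance trend) of limma 3.58.1 under R 4.3.3, two-sided, at a threshold of 0.05 after Benjamini-Hochberg adjustment across the 22180 genes. The fit was tested on 20 simulated data sets with 200 changed genes each and independent normal noise at each gene's own SD. It recovered 10.8% of 1.25-fold, 66.2% of 1.5-fold and 94.7% of 2-fold changes, so small changes would mostly be missed. The number of arrays limits the precision. Exact permutation tests ran over 252 assignments and cannot go below p = 0.00794. Relations across arrays used 100000 permutations, or all orders where 8 arrays remained, two-sided, adjusted within families of 45, 30, 48, 20 and 3 relations. The families of 48, 20 and 3, the omission of control replicate 5 and the scalings of relations were added after the data were seen.

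The members and the 5 pathway and 10 marker lists were chosen with earlier results of these data known. Of 91 pathway genes listed, 84 were measured. The text names all members, up to 4 genes per pathway list with the smallest unadjusted p, defining markers, and the nearest profiles. Atp5a1, Mb, Ckmt2, Vegfa and Cd36 were named after their values had been seen. Alternatives were a replicate block, a dim filter, variance models, array weights, 3 further scalings, other probe set choices and the omission of each array.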

Additional observations from a re-analysis of the deposited data

Results flagged for a closer look

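In groups of 5 mice, an array whose gap to its nearest neighbour exceeds 0.71 of the group's range was marked, over 50 groups of values (10 regulators and 15 list levels on each diet). About 1 in 20 groups is marked by chance. No regulator was marked in either group. The level of the upstream kinases and factors of Ppargc1a was 9.04 in carnitine mouse 4, against 9.12 to 9.14 in the other 4 carnitine mice. The level of 3 measured nerve (Schwann cell) markers was 6.89 in carnitine mouse 5, against 6.15 to 6.2 in the other 4 carnitine mice. The 3 genes did not move alike. Sox10 was at most 6.16 in carnitine mice, against 5.98 to 6.57 in controls. Pmp22 reached 9.25 in carnitine mice and 8.5 in controls. S100b, which is dim with a mean of 4.6, reached 5.26 and 4.83. Carnitine mouse 5 also had the lowest Esrrg (7.96), Ppara (7.04) and PGC-1 and ERR target level (10.78) of all 10 mice, and the part of nerve tissue in those values was not tested.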

How the results depend on the processing

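No alternative brought a regulator past the adjusted threshold: over 20 settings and 10 genes the lowest adjusted p was 0.58 and the differences ran from -0.22 to 0.21, with 20 of 200 values opposite in sign to the reported one. After cyclic loess and quantile normalisation the differences were -0.09 and -0.08 for Ppargc1a, -0.02 and -0.01 for Esrra, and -0.03 and -0.04 for Ppara. With array weights Ppargc1a stood at -0.04, and after median centring Ppard stood at 0.03. When single arrays were left out, differences ran from -0.05 to 0.1 for Ppargc1a, -0.17 to 0.03 for Ppargc1b, -0.03 to 0.16 for Tfam, -0.07 to 0.13 for Ppara and -0.05 to 0.01 for Ppard. The cause of these turns was not tested. Over all genes the count past the threshold was 0 in 19 settings and 0 to 1 when arrays were left out, with the 1 gene found without control replicate 2. The count at an unadjusted p below 0.05 was 2560 without control replicate 2, 844 with the filter on dim genes, where fewer genes were tested, and 2437 over all probe sets, where more were. Same-numbered arrays of the 2 diets did not pair: their deviations correlated at -0.132 to 0.236, and in 0 of 5 cases was a carnitine array closest to its own number. With the replicate block 0 genes and 0 regulators passed, and 1802 genes had an unadjusted p below 0.05. Of the 30 relations with list levels, 3 passed as reported, 3 after cyclic loess, 5 with group means subtracted, 1 after quantile normalisation, 1 without control replicate 5 and 0 without the 2 arrays farthest from the median, where 8 arrays remain. The relation that passed in both cases with a count of 1 was that of Ppara with the PGC-1 and ERR targets. None of the 45 regulator pairs passed in any of these settings. All 10 regulators lay above the median probe set level of 5.8.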
